A study of Homo sapiens with 6 samples.

Results

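The mitochondrial chaperones and proteases described here are 10 genes of protein folding and protein clearance inside mitochondria. They were listed by symbol and role as the chaperones and proteases of the mitochondrial unfolded protein response: HSPD1, HSPE1, TRAP1, DNAJA3, LONP1, CLPP, CLPX, YME1L1, AFG3L2 and HTRA2. Each was found among the 62252 genes of GENCODE 44 that had a transcript in the quantification. All 10 passed the filter on low counts (a mean estimated count above 10), as did 21045 genes in total. In brief, RNA of the chaperonin pair, the mitochondrial Hsp90, a J protein and the Lon protease was lower with Dox (the Lon protease in only 8 of 17 other fits), whereas none of the other 5 proteases and protease subunits passed the test in either direction, and no member was higher.

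Proteins that enter mitochondria are folded in the matrix by mitochondrial Hsp70 with its J proteins and nucleotide exchange factors, and then by the Hsp60 chaperonin ring with its Hsp10 lid. Misfolded or unneeded proteins are cut by the AAA+ proteases LONP1 and CLPXP in the matrix, by AAA proteases anchored in the inner membrane and by the serine protease HTRA2 in the intermembrane space. When this system is overloaded, mammalian cells can raise the nuclear transcripts of these factors, a response that has been linked to the transcription factors ATF4, ATF5, CHOP (DDIT3) and HSF1. Doxycycline (Dox), the inducer used here, is a tetracycline antibiotic of a class known to inhibit protein synthesis on mitochondrial ribosomes.

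The cells were K562, a human leukemia line with erythroid features. All of them descended from 1 clone that carries a lox landing site at AAVS1, into which a Flag-PCBP1 cassette with a tet-inducible promoter and puromycin resistance had been exchanged. The resulting line was polyclonal and kept under puromycin. PCBP1 is an RNA-binding protein that also delivers iron to other proteins. The control group (−Dox) was the same line without Dox, and the PCBP1 overexpression group (PCBP1 OE, +Dox) was the line with Dox, with 3 polyA RNA libraries in each. The dose and the time of Dox for these libraries are not given in the sources used here. Because Dox was present only where Flag-PCBP1 was induced, effects of the drug and of the protein cannot be told apart. Total estimated counts were 84177316, 80104627 and 74766040 in −Dox and 70905656, 82263502 and 82449808 in +Dox.

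The induced gene matched the labels. PCBP1 stood at 247, 269 and 267 CPM in −Dox and at 1029, 936 and 1037 CPM in +Dox, where CPM values are counts scaled to library size with TMM normalization. This was a log2 fold change of 1.94 (SE 0.055, edgeR quasi-likelihood test, Benjamini-Hochberg adjusted p = 5.22e-10). The defining K562 transcripts were abundant in both groups: GATA1 at 157 to 183 CPM and HBG1, a fetal globin, at 1979 to 2523 CPM. Among markers of other cell types, CD3E, MS4A1 and KRT5 stayed under the filter, and ALB was at no more than 0.27 CPM. Among the K562 markers, the erythroid transcription factor TAL1 (log2 fold change 0.44, adjusted p = 8.34e-05) was higher in +Dox and the transferrin receptor TFRC (-0.34, adjusted p = 0.00086) was lower by the same edgeR test, so erythroid markers moved with the group. Their part in the results below was not tested, and in bulk RNA fewer cells of a type and less RNA per cell cannot be told apart.

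HSPD1 and HSPE1 are neighbours on chromosome 2 that are transcribed away from each other from a shared stretch of DNA. Between 1 RefSeq start of HSPD1, at 197499840 (minus strand), and that of HSPE1, at 197500379 (plus strand), lie 539 bases. A second RefSeq start of HSPD1, at 197500274, is nearer to the HSPE1 start. RefSeq promoter windows (250 bases before to 50 after each start, GRCh38.p14) were on hand for 8 of the 10 genes, all but CLPP and YME1L1. The following 30-base stretches are shown because they hold the letters of elements often named for chaperone genes, in capitals, each read 5′ to 3′ on the strand of its gene.
HSPD1 heat shock element, chr2:197500061-197500090, minus strand: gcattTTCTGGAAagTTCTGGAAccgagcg
HSPE1 E-box, chr2:197500345-197500374, plus strand: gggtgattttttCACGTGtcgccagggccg
LONP1 distal E-box, chr19:5720341-5720370, minus strand: ctcacagccttcCACGTGaccggaaaaggc
LONP1 proximal E-box, chr19:5720178-5720207, minus strand: cgcgccgggcgtCACGTGcgtttcgcggcg
In GENCODE 44 the HSPD1 stretch lies in a UTR of some HSPD1 transcripts, the HSPE1 stretch in a UTR of some HSPE1 transcripts, the distal LONP1 stretch in a UTR of some LONP1 transcripts, and the proximal one within LONP1 but in no exon.

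The letters searched on both strands were TTCNNGAA, GAANNTTC, TGATGNAA (as in elements bound by ATF4 and CHOP) and CACGTG. Among the 11 windows of the 8 genes, TTCNNGAA was found for HSPD1 alone, at positions -245 and -235 from its start at 197499840. Of all 35116 promoter windows, 7.74% hold it. GAANNTTC, found in 6.77% of all windows, was also found for HSPD1 alone and overlaps both TTCNNGAA matches. CACGTG occurred in the windows of HSPD1 (from a second RefSeq start at 197500274), HSPE1 and LONP1 against 7.26% of all windows, the HSPD1 and HSPE1 matches being 1 shared site at position -22 from the HSPE1 start. TGATGNAA, present in 3.62% of all windows, was in none of the 11. These matches describe letters in the windows and were searched with the expression values known.

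Per transcript length, the chaperonin pair far exceeded the other members. Deposited TPM values, which correct for both the length of a transcript and the size of a library, averaged 993 ± 10.8 (SD, n = 3) for HSPE1 and 632 ± 15.02 for HSPD1 in −Dox, which is 47.5% and 30.3% of the summed TPM of the 10 genes. TRAP1 followed at 113 ± 4.64, YME1L1 at 87.6 ± 3.24 and CLPP at 79.4 ± 3.57. Lower levels were measured for AFG3L2 at 44.8 ± 1.99, DNAJA3 at 41.8 ± 2.30, LONP1 at 36.1 ± 3.04, HTRA2 at 30.7 ± 1.83 and CLPX at 30.7 ± 2.78. Neighbours in this order had separate −Dox ranges, except that AFG3L2 overlapped DNAJA3 and HTRA2 overlapped CLPX. In +Dox the means were 783 ± 34.9 for HSPE1, 505 ± 22.9 for HSPD1, 84.6 ± 5.22 for TRAP1, 87.3 ± 3.22 for YME1L1, 78.6 ± 6.05 for CLPP, 43.3 ± 3.07 for AFG3L2, 34.6 ± 2.85 for DNAJA3, 29.6 ± 2.41 for LONP1, 33.5 ± 0.91 for HTRA2 and 28.3 ± 1.41 for CLPX. The summed TPM of the 10 genes was 2107, 2092 and 2066 in −Dox and 1712, 1699 and 1713 in +Dox, so the groups did not overlap, and the 2 chaperonin genes carried most of the difference (1641, 1632 and 1602 against 1288, 1275 and 1301).

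**Figure D1:**
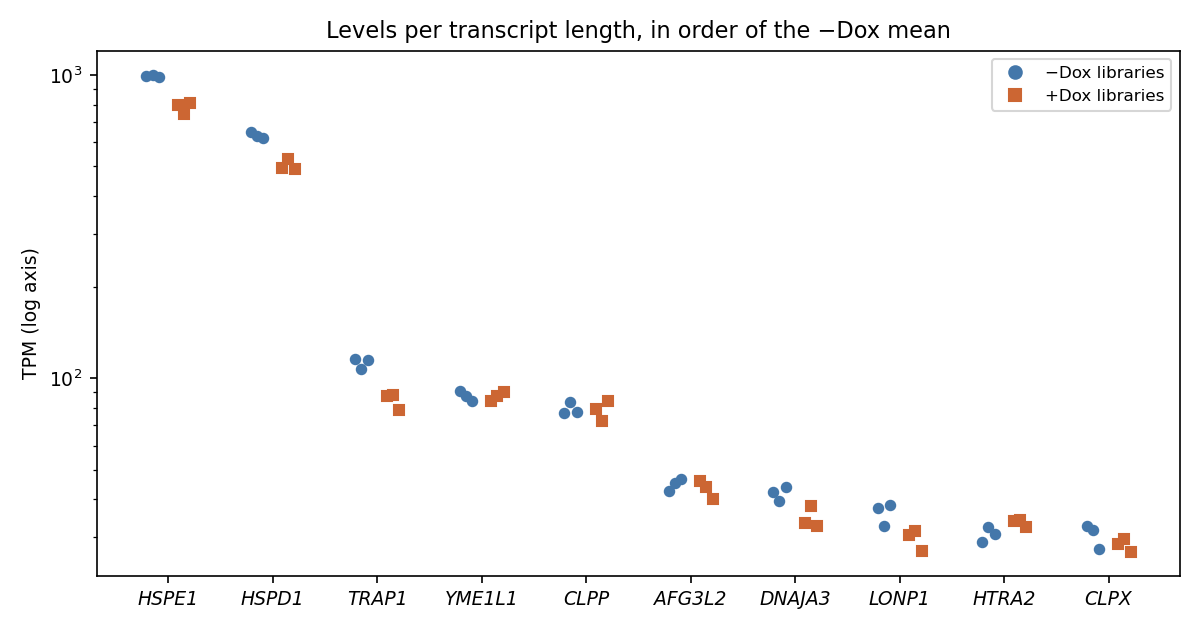
TPM of each gene (log axis) in the 3 −Dox libraries (circles) and the 3 +Dox libraries (squares), ordered by the −Dox mean. HSPE1 and HSPD1 stand at 489.6 TPM or more in every library, far above the other 8 genes, and +Dox points lie below all −Dox points for HSPE1, HSPD1, TRAP1, DNAJA3 and LONP1.

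The comparison of +Dox with −Dox asked whether the members moved with Dox and PCBP1 OE. At an adjusted p under 0.05 (edgeR, Benjamini-Hochberg over 21045 genes), 5 of the 10 were lower and 0 were higher. Over all genes tested, 15.8% were called, 7.68% lower and 8.16% higher. Because called genes are more frequent among abundant ones, the share was also taken over the 6024 genes with a mean of at least 30 CPM, a limit chosen after the data were seen. Among these 27.4% were called, 16.1% lower and 11.3% higher. The median log2 fold change was -0.12 over the 10 genes, 0.01 over all genes tested and -0.02 over the 6024 abundant genes.

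By CPM, for 6 of the 10 genes every +Dox library lay below every −Dox library and for 1 every +Dox library lay above. Groups without overlap occurred for 33.2% of all genes tested, 15.8% with +Dox below and 17.4% with +Dox above, and among the abundant genes 27.1% had +Dox below and 19.5% above. No member reached an absolute log2 fold change above 1 at an adjusted p under 0.05, the limits the study used for differentially expressed genes, which 1.46% of all genes tested reached. The differences of the 5 called members lay between -0.33 and -0.19 on the log2 scale.

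**Figure D2:**
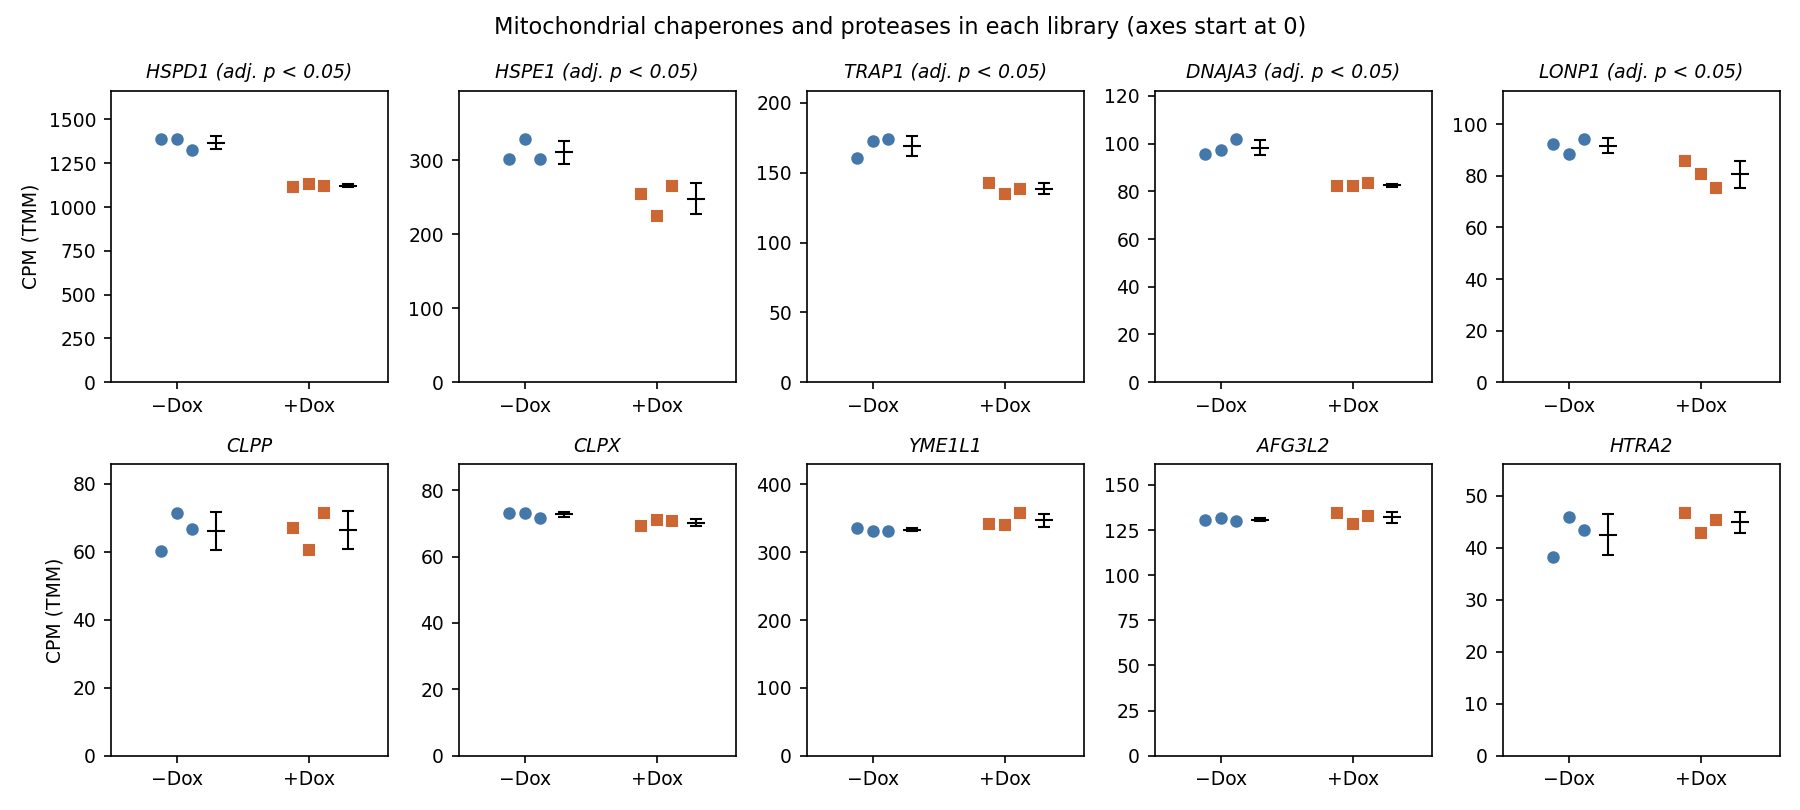
TMM-normalized CPM of the 10 genes in each −Dox library (circles) and +Dox library (squares), with the group mean and SD (bar beside the points, n = 3) and axes from 0. The groups are apart for the 5 genes of the upper row, which were called by edgeR, and for CLPX (lower in +Dox) and YME1L1 (higher in +Dox), which were not.

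The chaperonin pair fell together. HSPD1 (Hsp60, the ring that encloses a folding protein; chr2:197486584-197516737, minus strand) was at 1388, 1387 and 1324 CPM in −Dox and at 1113, 1134 and 1120 CPM in +Dox. The lowest −Dox library was above the highest +Dox library, and the +Dox libraries differed little among themselves. HSPD1 fell by 0.28 on the log2 scale (SE 0.043, 95% confidence interval -0.38 to -0.19, adjusted p = 0.00072, edgeR), a change of -17.9%. HSPE1 (Hsp10, the lid of the ring; chr2:197500140-197503449, plus strand) was at 302, 328 and 301 CPM in −Dox and at 254, 224 and 264 CPM in +Dox. These groups were also apart, with the second +Dox library lowest. HSPE1 fell by 0.33 on the log2 scale (SE 0.062, interval -0.46 to -0.19, adjusted p = 0.0032, edgeR), a change of -20.3%.

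The proportion of the chaperonin partners was compared next. The ratio of HSPD1 to HSPE1 TPM was 0.654, 0.626 and 0.631 in −Dox and 0.620, 0.713 and 0.604 in +Dox, with overlapping groups. Its means were 0.637 ± 0.015 and 0.646 ± 0.059 (SD, n = 3), with p = 1 in a two-sided exact permutation test, which for 3 against 3 libraries cannot go below 0.1. The RNA-level values of HSPE1 carry a limit: 10.5% of its exon bases are shared on the same strand with HSPE1-MOB4, a read-through gene at 2.62 to 3.56 TPM (log2 fold change -0.09, adjusted p = 0.82 by edgeR). Adding the counts of HSPE1-MOB4 and of the annotated pseudogenes of HSPD1 and HSPE1 to the members left the same 5 genes called.

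The Hsp90 and J-protein members were lower as well. TRAP1 (the mitochondrial Hsp90; chr16:3651639-3717553, minus strand) was at 161, 172 and 174 CPM in −Dox and at 143, 135 and 138 CPM in +Dox. The groups were apart, and TRAP1 fell by 0.29 on the log2 scale (SE 0.049, interval -0.39 to -0.18, adjusted p = 0.0016, edgeR). DNAJA3 (a J protein that works with mitochondrial Hsp70; chr16:4425805-4456775, plus strand) was at 95.8, 97.2 and 102 CPM in −Dox and at 82.1, 82.1 and 83.3 CPM in +Dox. All 3 +Dox libraries of DNAJA3 were within 2 CPM of each other and below every −Dox library. DNAJA3 fell by 0.25 on the log2 scale (SE 0.047, interval -0.35 to -0.15, adjusted p = 0.0028, edgeR).

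Among the matrix proteases, LONP1 alone passed the test. LONP1 (the Lon protease, which clears damaged matrix proteins; chr19:5691834-5720572, minus strand) was at 92.3, 88.6 and 94.2 CPM in −Dox and at 85.7, 80.7 and 75.1 CPM in +Dox. The groups were apart by a narrow margin, since the lowest −Dox library was close to the highest +Dox library. LONP1 fell by 0.19 on the log2 scale (SE 0.056, interval -0.31 to -0.067, adjusted p = 0.037, edgeR). This call was lost in 5 of the 6 fits that left out 1 library: adjusted p was 0.056, 0.054 and 0.126 without −Dox library 1, 2 and 3 and 0.088 and 0.145 without +Dox library 2 and 3.

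CLPP and CLPX form the other matrix protease, CLPP as the peptidase chamber and CLPX as the AAA+ unfoldase that feeds it. CLPP (chr19:6361531-6370242, plus strand) was at 60.2, 71.2 and 66.7 CPM in −Dox and at 67.0, 60.6 and 71.5 CPM in +Dox. Its groups overlapped over almost their whole ranges, with a log2 fold change of 0.01 (interval -0.15 to 0.16, adjusted p = 0.97, edgeR). CLPX (chr15:65148219-65185342, minus strand) was at 73.1, 73.2 and 71.7 CPM in −Dox and at 69.2, 70.9 and 70.6 CPM in +Dox. By CPM every +Dox library of CLPX was below every −Dox library, yet the difference of -0.05 (interval -0.15 to 0.05, adjusted p = 0.54, edgeR) did not pass the test. The ratio of CLPX to CLPP TPM averaged 0.387 ± 0.036 in −Dox and 0.362 ± 0.046 in +Dox (p = 0.5, two-sided exact permutation test, n = 3).

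Neither of the inner membrane proteases among the members passed the test. YME1L1 (the i-AAA protease, which faces the intermembrane space; chr10:27110111-27155266, minus strand) was at 336, 332 and 332 CPM in −Dox and at 342, 340 and 358 CPM in +Dox. By CPM it was the 1 member with every +Dox library above every −Dox library, by 0.06 on the log2 scale (interval -0.03 to 0.15, adjusted p = 0.42, edgeR). By TPM its groups overlapped (84.3 to 90.7 in −Dox and 84.1 to 90.6 in +Dox). AFG3L2 (a subunit of the m-AAA protease, which faces the matrix; chr18:12328944-12377227, minus strand) was at 131, 132 and 129.9 CPM in −Dox and at 135, 128 and 133 CPM in +Dox. Its groups overlapped and the log2 fold change was 0.01 (interval -0.08 to 0.11, adjusted p = 0.88, edgeR). The ratio of AFG3L2 to SPG7, the other subunit of the m-AAA protease, averaged 2.07 ± 0.30 in −Dox and 2.10 ± 0.12 in +Dox by TPM (p = 1), and that of YME1L1 to AFG3L2 averaged 1.96 ± 0.16 and 2.03 ± 0.22 (p = 0.6), both by two-sided exact permutation tests with n = 3.

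HTRA2 (a serine protease of the intermembrane space; chr2:74529596-74533350, plus strand) was the least abundant member by CPM, at 38.1, 45.9 and 43.4 in −Dox and 46.7, 42.7 and 45.2 in +Dox. The groups overlapped by CPM (by TPM the lowest +Dox library, at 32.457, was just above the highest −Dox library, at 32.452), with a log2 fold change of 0.08 (interval -0.07 to 0.23, adjusted p = 0.50, edgeR). Over the 5 members that were not called, the intervals reached down to -0.15 (CLPP) and up to 0.23 (HTRA2). Whether the changes of 2 members differ from each other was tested only as the ratios given here, 5 in all counting TRAP1 to HSPA9 below, and each had an adjusted p of 1.

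Several members share bases with another gene on the opposite strand, and the strand setting of the quantification is not given in the sources used here, so reads from such stretches cannot be assigned with certainty. DNASE1 shares 28.5% of the exon bases of TRAP1, at 5.34 TPM in −Dox and 5.50 in +Dox (log2 fold change 0.15, adjusted p = 0.28). LOXL3 shares 27.5% of HTRA2, at 0.37 and 0.50 TPM (0.50, adjusted p = 0.20), and TUBB6 shares 11.7% of AFG3L2, at 68.4 and 65.2 TPM (-0.03, adjusted p = 0.75). None of these 3 neighbours was called by edgeR. Smaller opposite-strand overlaps, from 0.835% to 6.04% of a member's exon bases, were annotated for LONP1, CLPP, HTRA2 and YME1L1. Values of those further neighbours are not given here. HSPD1 and HSPE1 themselves share 135 bases on opposite strands, 7.41% of the exon bases of HSPE1.

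At transcript level, 104 of the 127 annotated transcripts of the 10 genes passed the filter and none was called after adjustment over 86178 transcripts (edgeR), against 0.204% of all transcripts tested. At an unadjusted p under 0.05, 12 were lower and 1 was higher, against 4.75% lower and 5.29% higher of all transcripts tested. DESeq2 called 11 of the 104 lower and 0 higher, against 3.21% lower and 3.79% higher of the 83898 transcripts to which it gave an adjusted p. The smallest adjusted p by edgeR was that of HSPD1-202, the main HSPD1 transcript (adjusted p = 0.064), which held 90.8% ± 0.84 of HSPD1 TPM in −Dox and 90.7% ± 1.04 in +Dox and went from 575 to 458 TPM. HSPE1-201 likewise held 95.2% ± 0.56 and 94.7% ± 0.19 of HSPE1 and went from 945 to 742 TPM. Each chaperonin gene was read almost wholly from 1 transcript in both groups.

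The other genes were spread over more transcripts. TRAP1-201 held 56.2% ± 2.45 of TRAP1 TPM in −Dox and 62.0% ± 3.23 in +Dox, and the shorter TRAP1-216 17.7% and 17.9%. DNAJA3-202 held 57.6% and 55.6% of DNAJA3, and DNAJA3-201 20.3% and 21.7%. LONP1-201 held 57.0% and 55.8% of LONP1, while LONP1-203 held 11.0% ± 4.65 and 17.2% ± 1.44 and the retained-intron transcript LONP1-214 10.4% and 9.80%. The −Dox libraries disagreed on LONP1-203 (11.4%, 15.4% and 6.18%), and neither transcript was called.

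For the protease subunits, CLPP-204 held 56.3% of CLPP TPM in −Dox and 55.3% in +Dox, followed by CLPP-205 at 22.1% and 24.7% and CLPP-201 at 15.9% and 16.0%. CLPX stood out in that a retained-intron transcript, CLPX-203, held the largest share of TPM, 39.0% ± 2.80 in −Dox and 41.2% ± 1.55 in +Dox. The coding CLPX-201 held 30.0% and 31.4%, and CLPX-204, annotated as a target of nonsense-mediated decay, 18.5% and 15.7%. CLPX-203 is 1493 bases long and CLPX-201 4695. By estimated counts, coding transcripts held most of CLPX, 60.2%, 57.6% and 60.2% in −Dox and 61.0%, 62.6% and 61.4% in +Dox. YME1L1-202 held 80.0% and 82.2% of YME1L1 TPM, and AFG3L2-201 held 74.3% ± 5.86 and 72.8% ± 14.8 of AFG3L2 TPM. The wide spread for AFG3L2-201 in +Dox came from library 1 (56.4%, against 76.7% and 85.2%). HTRA2-201 held 42.9% and 39.8% of HTRA2, and HTRA2-204, which has no defined coding sequence, 16.8% and 19.4%.

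The share of TPM on transcripts annotated as protein-coding separated the groups for LONP1, at 73.9%, 72.4% and 72.4% in −Dox and 76.3%, 74.5% and 76.9% in +Dox. The two-sided exact permutation p was 0.1, the smallest that 3 against 3 libraries allow, and 0.5 after adjustment over the 10 genes. TRAP1 averaged 78.3% ± 2.36 and 83.2% ± 3.54 (p = 0.2, exact permutation test, n = 3), and CLPX 30.3% ± 3.51 and 32.1% ± 0.35 (p = 0.4). No member had an adjusted p under 0.5 in this comparison.

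The members work with a larger set of mitochondrial folding, import and processing factors, for which 29 genes were listed. Of these 9 were lower, 1 was higher and 19 were not called (edgeR), with a median log2 fold change of -0.14, and 24 of the 29 values were negative. Negative values occurred for 10295 of the 21045 genes tested and for 3249 of the 6024 abundant genes. Over all genes tested 7.68% were lower and 8.16% higher, and among the abundant genes 16.1% and 11.3%. Every +Dox library was below every −Dox library for 16 of the 29, against 15.8% of all genes tested and 27.1% of the abundant genes. Leaving out −Dox library 2 or +Dox library 2 brought the count of lower genes to 5.

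In the sublist of mitochondrial Hsp70 and the import motor, 4 of 9 genes were lower. HSPA9, mitochondrial Hsp70 itself, was at 825, 813 and 784 CPM in −Dox and at 680, 671 and 658 CPM in +Dox. The groups were well apart, and HSPA9 fell by 0.27 on the log2 scale (SE 0.043, adjusted p = 0.0011, edgeR). GRPEL1, its nucleotide exchange factor and the gene of smallest p on the list, was at 82.6, 95.4 and 86.2 CPM in −Dox and 68.1, 61.8 and 65.6 CPM in +Dox, and fell by 0.44 (adjusted p = 0.00046). GRPEL2, the paralog of GRPEL1, fell by 0.41 (adjusted p = 0.0019), and TIMM44, which tethers Hsp70 to the import channel, fell by 0.27 (adjusted p = 0.0029). The ratio of TRAP1 to HSPA9 TPM was 0.367 ± 0.016 in −Dox and 0.342 ± 0.012 in +Dox (p = 0.2, two-sided exact permutation test, n = 3).

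Of the 4 genes listed as disaggregase and AAA assembly factors, BCS1L (log2 fold change -0.20, adjusted p = 0.031) and MAIP1 (-0.23, adjusted p = 0.021) were lower by edgeR. BCS1L helps assemble respiratory complex III, and MAIP1 interacts with the m-AAA protease. Of the 8 membrane proteases and scaffolds, the scaffold prohibitin PHB1, the gene of highest TPM on the list, was lower (-0.21, adjusted p = 0.027), and no protease of this group was called, with SPG7 at -0.10 (adjusted p = 0.37) and OMA1 at 0.13 (adjusted p = 0.21). The 8 presequence and matrix peptidases were divided. PMPCA, the alpha subunit of the matrix processing peptidase, fell by 0.30 (adjusted p = 0.0010) and NLN fell by 0.18 (adjusted p = 0.046), whereas PMPCB, the catalytic beta subunit, rose by 0.18 (adjusted p = 0.018, all by edgeR). PMPCB was at 133, 128 and 126 CPM in −Dox and at 143, 146 and 148 CPM in +Dox, with no overlap. The calls of BCS1L, MAIP1, PHB1 and PMPCB were each lost in 4 of the 6 fits that left out 1 library (without −Dox library 2, −Dox library 3, +Dox library 2 and, for MAIP1, +Dox library 1, for the others +Dox library 3), with the highest adjusted p at 0.118, 0.089, 0.114 and 0.074, and that of NLN in 5 (highest 0.141, without +Dox library 1).

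**Figure D3:**
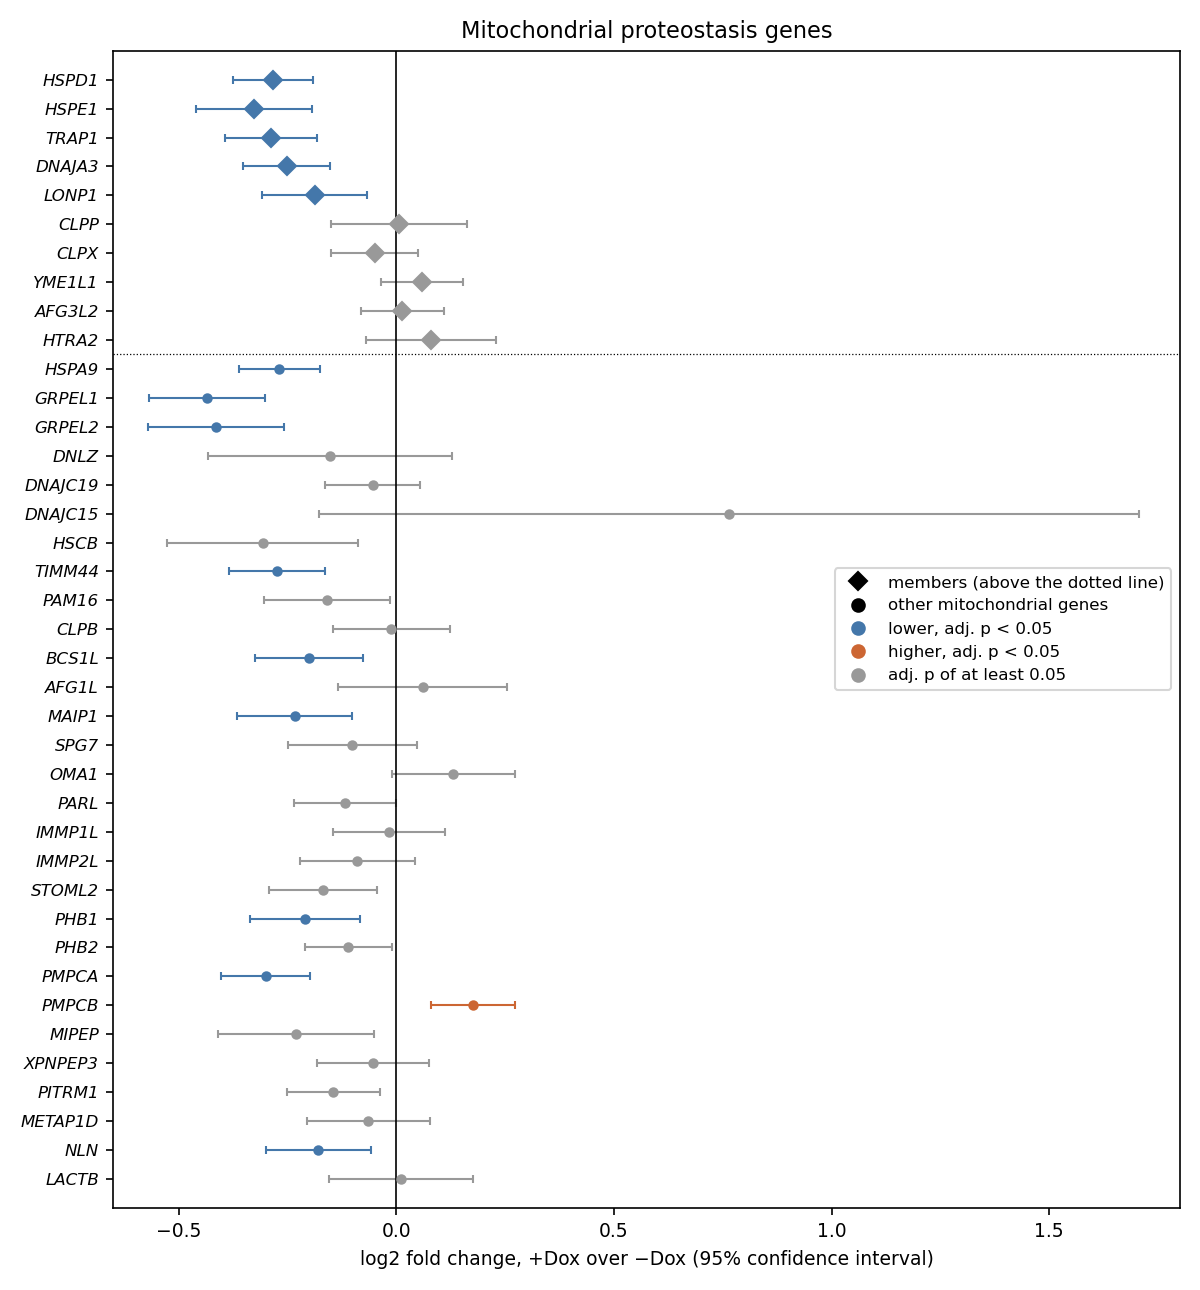
Log2 fold change of +Dox over −Dox with its 95% confidence interval (edgeR) for the 10 members (diamonds, above the dotted line) and 29 other mitochondrial folding, import and processing genes (circles). Of the members 5, and of the other genes 9, lie below 0 with an adjusted p under 0.05, PMPCB lies above 0, and DNAJC15 has a wide interval (0.76, from -0.18 to 1.71) at under 1 CPM.

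The listed regulators of the mitochondrial stress response were mixed. Of 10, ATF4, CEBPB and TFAM were lower, EIF2AK1 was higher and 6 were not called (edgeR). The share called was 40%, against 15.8% of all genes tested and 27.4% of the abundant genes. ATF4 was at 266, 215 and 232 CPM in −Dox and at 209, 189 and 205 CPM in +Dox and fell by 0.24 on the log2 scale (adjusted p = 0.035). The ATF4 groups were apart by a narrow margin, and its call was lost in 5 of the 6 fits that left out 1 library (highest adjusted p = 0.121, without +Dox library 2; the call held without −Dox library 2). CEBPB fell by 0.30 (adjusted p = 0.013), TFAM, which packages and transcribes mitochondrial DNA, fell by 0.19 (adjusted p = 0.011), and EIF2AK1, the heme-regulated kinase that can also relay mitochondrial stress, rose by 0.34 (adjusted p = 0.00028). ATF5 at 0.01 (adjusted p = 0.97), DDIT3 at -0.04 (adjusted p = 0.78), HSF1 at -0.03 (adjusted p = 0.81) and DELE1 at 0.05 (adjusted p = 0.68) were not called.

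Of 16 genes listed as ATF4-linked output, 15 were tested, 7 were lower and 1 was higher. Of those tested 53.3% were called, against 15.8% of all genes tested and 27.4% of the abundant genes. GDF15, a secreted stress signal, was at 34.5, 31.1 and 34.4 CPM in −Dox and at 23.6, 21.6 and 23.5 CPM in +Dox and fell by 0.54 on the log2 scale (adjusted p = 0.00012, edgeR). CHAC1 fell by 1.91 (adjusted p = 0.0038), ATF3 fell by 0.89 (adjusted p = 0.0043), SESN2 fell by 0.40, PSAT1 fell by 0.33, ALDH18A1 fell by 0.18 and SHMT2, the mitochondrial serine hydroxymethyltransferase, fell by 0.16. PCK2, the mitochondrial PEP carboxykinase, rose by 0.33 (adjusted p = 0.0047). MTHFD2, the most abundant gene of the list, was not called (-0.17, adjusted p = 0.12). The first −Dox library stood high for CHAC1 (3.45, against 1.12 and 1.53 CPM), ATF3 (15.8, against 8.30 and 10.9) and SLC7A11 (47.6, against 27.7 and 29.6). The calls of SESN2, SHMT2 and ALDH18A1 were each lost in 5 of the 6 fits that left out 1 library and that of PSAT1 in 3. Without −Dox library 1, 5 genes of the list were lower, and without +Dox library 1, 2 or 3 the counts were 3, 4 and 3.

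Chaperones outside mitochondria were examined alongside. All 19 listed cytosolic chaperones had a negative log2 fold change, in every fit run, with a median of -0.19 in the reported fit. In that fit 10295 of the 21045 genes tested and 3249 of the 6024 abundant genes were negative. Of the 19, 11 were lower and 0 higher (edgeR). Leaving out −Dox library 2 brought the count to 7. The cytosolic share called was 57.9%, against 15.8% of all genes tested and 27.4% of the abundant genes (16.1% lower and 11.3% higher). HSP90AB1 (-0.34, adjusted p = 0.00036), HSP90AA1 (-0.32, adjusted p = 0.00041), HSPA8 (-0.31, adjusted p = 0.00042) and TCP1, a subunit of the cytosolic chaperonin (-0.23, adjusted p = 0.0027), were lower, beside -0.28 for HSPD1 and -0.33 for HSPE1. HSPA1A and HSPA1B, near-identical heat-inducible Hsp70 genes between which reads may be split, were not called (-0.15, adjusted p = 0.18, and -0.20, adjusted p = 0.094). In the endoplasmic reticulum 4 of 15 chaperones and cofactors were lower and 0 were higher: HSPA5 (BiP; -0.34, adjusted p = 0.00027), HYOU1 (-0.21), SDF2L1 (-0.29) and HERPUD1 (-0.34). Without +Dox library 2 or 3 or −Dox library 3 that count was 2, 1 and 2, and HSPA5 was called in all 17 other fits. The endoplasmic reticulum share called, 26.7%, was close to the 27.4% of the abundant genes. HSP90B1, the most abundant, was not called (-0.07, adjusted p = 0.33).

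Of the mRNAs made inside mitochondria, 7 had a positive and 6 a negative log2 fold change. Genes of the mitochondrial genome held 9.41%, 9.19% and 8.80% of estimated counts in −Dox and 9.16%, 9.02% and 9.33% in +Dox, with overlapping groups. By TPM the groups were apart by a narrow margin. The summed TPM of the 13 mRNAs was 185418, 178861 and 174318 in −Dox and 185928, 194601 and 188464 in +Dox. Of these 13, MT-CYB (0.31, adjusted p = 0.00075), MT-ATP6 (0.22, adjusted p = 0.0044) and MT-ATP8 (0.33, adjusted p = 0.0044) were higher and MT-CO1 (-0.18, adjusted p = 0.045) was lower, with a median log2 fold change of 0.01 (edgeR). The share called, 30.8%, was close to the 27.4% of the abundant genes. MT-ATP8 overlaps MT-ATP6, and polyA selection captures mitochondrial transcripts unevenly, so their levels are less certain. The MT-CO1 call was lost without −Dox library 1, 2 or 3 or +Dox library 1 or 2 (highest adjusted p = 0.151).

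**Figure D4:**
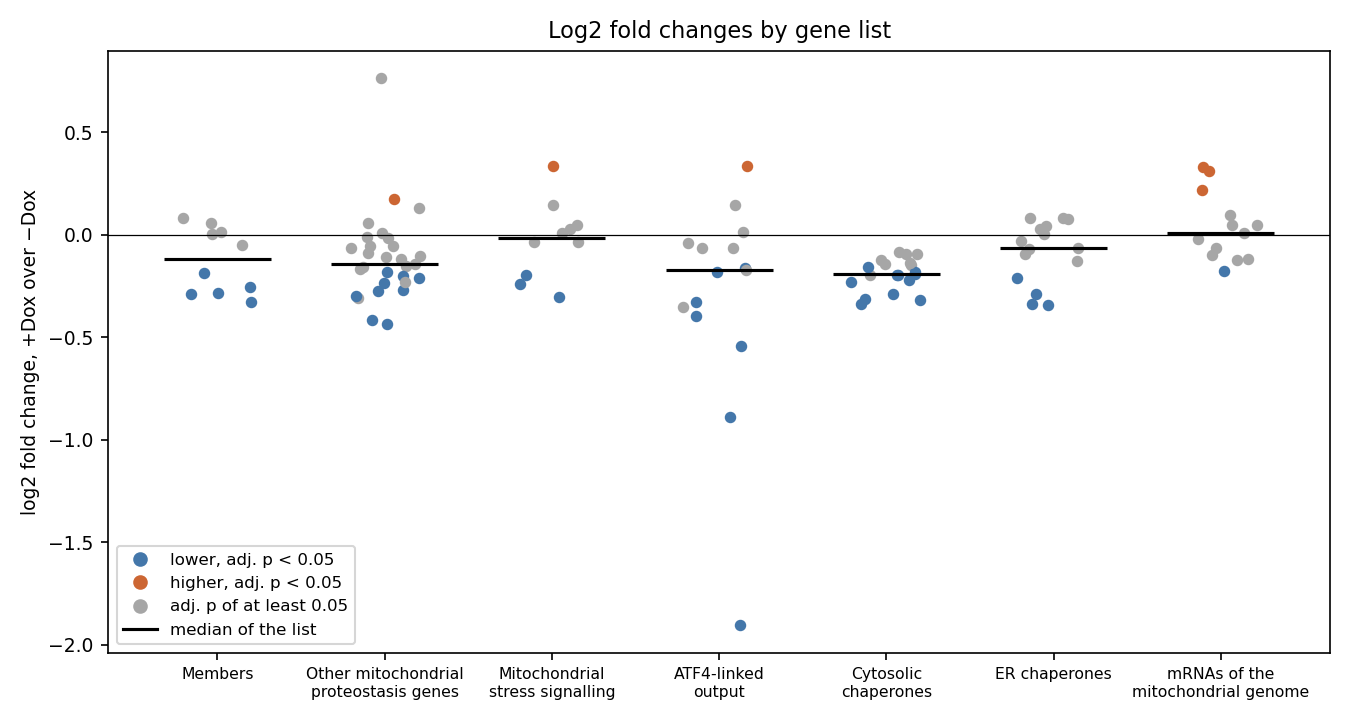
Log2 fold change of +Dox over −Dox (edgeR) for each tested gene of 7 lists, with the median of each list (line). The median is -0.12 for the 10 members, -0.14 for the other mitochondrial proteostasis genes, -0.01 for stress signalling, -0.17 for ATF4-linked output, -0.19 for cytosolic chaperones, -0.07 for endoplasmic reticulum chaperones and 0.01 for mRNAs of the mitochondrial genome.

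HSPD1 had the smallest p of the members, and genes were ranked by the likeness of their log2 CPM to its own over the 6 libraries. Among 9289 genes with a mean of at least 10 CPM, the highest Pearson r was that of STRBP (0.999), SUPV3L1 (0.998), GNL3 (0.997), MTRR (0.997) and ZNF587B (0.995). These values describe 6 libraries that share the Dox contrast. Their log2 fold changes were -0.17 for STRBP, -0.30 for SUPV3L1, -0.22 for GNL3, -0.33 for MTRR and -0.17 for ZNF587B.

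The calls were fewer with limma on TPM, a fit that differs in unit, tool and filter together, and which of these accounts for it was not tested. With the count-based fits, HSPD1, HSPE1, TRAP1 and DNAJA3 were called in each fit. In the fits that left out 1 library, their highest adjusted p was 0.0053, 0.013, 0.011 and 0.018 (edgeR). Other edgeR fits gave higher values for HSPD1 (0.0145, with replicate number as a term) and, with the transcript length offset, for HSPE1 (0.0152) and DNAJA3 (0.0309). On log2 TPM with limma, 1 member (HSPE1) was called with a pseudocount of 0.1 and 3 (HSPD1, HSPE1 and TRAP1) with a pseudocount of 1. With the pseudocount of 0.1, adjusted p was 0.055 for HSPD1, 0.0501 for TRAP1 and 0.139 for DNAJA3, with log2 fold changes of -0.33, -0.41 and -0.27. The comparison lists also had fewer calls with limma: at either pseudocount it called lower at most 5 cytosolic chaperones (against 11 by edgeR), 1 endoplasmic reticulum chaperone (against 4), 2 genes of ATF4-linked output (against 7) and 1 regulator (against 3), and higher at most 1 mRNA of the mitochondrial genome (against 3). No called member changed sign under any of the 17 other fits.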

How the data were processed

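PolyA RNA of 3 −Dox and 3 +Dox K562 libraries was sequenced as paired ends. The authors quantified transcripts with Salmon 1.10.2 (per the paper and the submitters' processing notes, which also name hg38) and deposited, per transcript and library, an estimated count, a TPM value and an effective length. The estimated counts are neither depth- nor length-scaled, and the deposited TPM values are scaled for both. The index, strand and bias settings are not given in the sources used here. Replicates were not pooled, and nothing says that the libraries of a group came from separate cultures, so p-values measure the spread between these libraries, which may be technical.

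Of 252045 transcripts, 251612 were matched to GENCODE 44 without regard to version. The 433 unmatched ones held at most 0.138% of counts. Estimated counts were summed per gene and rounded to whole numbers. edgeR 4.0.16 (quasi-likelihood test, TMM) in R 4.3.3 was run on genes whose mean count exceeded 10, and genes were called at a Benjamini-Hochberg adjusted p under 0.05. Transcripts were tested likewise, and ratios and coding shares by exact permutation tests. Alternatives used DESeq2 1.42.0, limma 3.58.1 on log2(TPM + 0.1) and log2(TPM + 1) for genes with a mean of at least 0.5 TPM, other scalings and filters, a transcript length offset, added shared reads, a replicate term, and each library left out in turn. Steps were tested on simulated data. Figures and tables were made with Python 3.11.15, pandas 2.3.3, numpy 2.4.6 and matplotlib 3.10.9.

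The members and all lists were chosen with earlier results of these data known. All members were named. Of other lists, genes with an adjusted p under 0.05, the gene of smallest p and that of highest TPM could be named, with partners in ratios, genes sharing at least 10% of a member's exon bases, and transcripts with at least 10% of a gene's TPM. SPG7, OMA1, ATF5, DDIT3, HSF1, DELE1, SLC7A11, DNAJC15, HSPA1A and HSPA1B were named after their values were seen. Some marker genes of the cell type lists are not reported here.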

Additional observations from a re-analysis of the deposited data

How the results depend on the processing

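Directions held: no called gene of the lists changed sign under any of the 17 other fits. Of the values that answer a comparison, 21 moved by more than 1.5 times (counts) or 1 SD (ratios and shares), and many others shifted by less, such as 4 members lower in 7 fits or a log2 difference of the HSPD1 to HSPE1 ratio of -0.058 without +Dox library 2 (reported 0.016). The limma fits on TPM called 588 (pseudocount 0.1) and 806 (pseudocount 1) of 16586 genes, and the transcript length offset 1882, against 3333 in the edgeR fit reported. With limma the members lower were 1 and 3 (against 5), the other 29 mitochondrial genes lower 1 and 2 (against 9), and higher 0 and 0 (against 1). The length offset gave 5 lower of the 29, 1 regulator lower (against 3), 5 genes of ATF4-linked output lower and 0 higher (against 7 and 1), 8 cytosolic chaperones lower (against 11), 1 endoplasmic reticulum chaperone lower (against 4) and 0 mRNAs of the mitochondrial genome lower (against 1). Leaving out 1 library gave 5 to 10 lower and 0 to 1 higher of the 29, and 4 to 5 members lower. Of member transcripts, DESeq2 called 11 lower and a filter of at least 10 counts in every library 1, against 0. From counts per kilobase the log2 difference of the TRAP1 to HSPA9 ratio was -0.0187 (TPM -0.0996), and from estimated counts the change of coding share was 0.0749 points for HSPD1 (TPM 0.366), 1.01 for TRAP1 (4.85) and 1.86 for LONP1 (3.003). The cause was not tested. With the replicate number as a term (replicate block), 4 members were lower (LONP1 adjusted p = 0.080), 5 of the 29 were lower and 0 higher, 6 cytosolic chaperones were lower, 2490 genes were called, and PCBP1 stayed at 1.94. Over all genes tested, same-numbered libraries did not deviate together from their group means (r = 0.0075, -0.060 and -0.0029). Whether they shared a culture or a preparation is not given in the sources used here, and these values cannot decide it. Counts for the comparison lists under each fit, and the limit of 30 CPM, were added after the data were seen. HTRA2 and CLPP, the least abundant members by CPM, had the widest intervals.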
